A study of Bos taurus with 6 samples.

Results

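NR4A1, NR4A2, NR4A3, EGR1, EGR2, EGR3, CREM, IER2, IER3 and BTG2 are immediate early genes, and their transcripts were examined in granulosa cells of cows given cetrotide and of control cows. The members were all gene probes of the two-colour array whose symbol, or its current synonym, is 1 of these 10 names. That gave 12 of 43794 gene probes, for 9 of the 10 genes: 3 probes for CREM, 2 for IER2 and 1 for each of the others. No probe carried the symbol EGR2, which was not analysed here. Of the 12 probes, 7 were above background often enough to be tested, and they stand for 6 genes: NR4A1, NR4A2, EGR1, IER2, IER3 and BTG2.

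The cells, which line the inside of the ovarian follicle and make oestradiol and later progesterone, came from pre-ovulatory follicles of multiparous Holstein cows. All cows had received gonadotropins to stimulate the ovary, and their follicles were then coasted: after the last injection of follicle stimulating hormone (FSH), 68 hours passed until the cells were aspirated at ovum pick-up. Cows given cetrotide (cetrorelix, which blocks the receptor of gonadotropin releasing hormone and so lowers the release of luteinizing hormone, LH) were compared with control cows, 3 cows per condition. Each of 6 arrays carried RNA of both conditions, with cetrotide RNA in Cy5 and control RNA in Cy3 on the 3 arrays of slide 1, and the dyes exchanged on the 3 arrays of slide 2. Same-area arrays of both slides were averaged into 3 dye-swap replicates. The sources used here give neither the ages of the cows nor which cows share an array, and the p-values therefore measure only a spread between samples that may be technical.

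Immediate early genes are switched on within minutes of a stimulus without new protein synthesis. In granulosa cells the LH surge acts through cyclic AMP, protein kinase A and the ERK kinases on factors such as CREB and SRF, which bind the promoters of these genes. NR4A and EGR proteins are transcription factors, CREM encodes both activators and the cAMP-induced repressor ICER, and BTG2 slows the cell cycle. Their transcripts are short-lived, so a level reflects recent signalling and also the handling of the cells before freezing.

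The labelled cell type had its markers. The FSH receptor FSHR, the aromatase CYP19A1 and the granulosa hormone AMH were above the background limit for both RNAs on all 6 arrays, while the granulosa transcription factor FOXL2 was above it for cetrotide RNA on 2 arrays and for control RNA on 0. Between 53.5% and 82.5% of gene probes were above the limit per array and RNA, and 31769 probes were tested. The limit is set by the negative control spots, at their 95th percentile for the same array and dye. The number of arrays limits the precision.

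**Figure D1:**
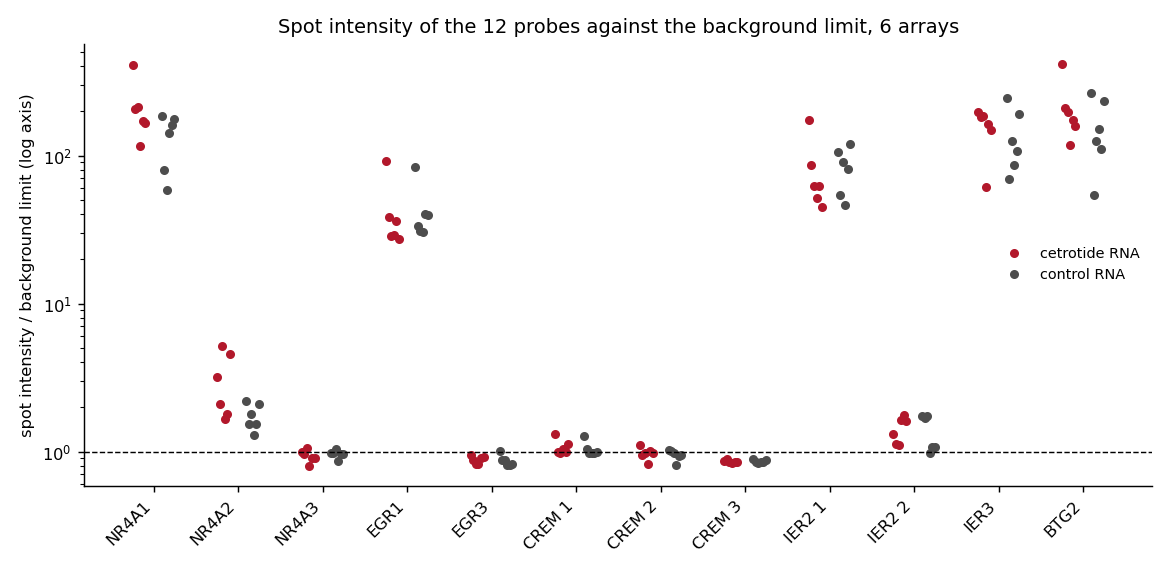
Spot intensity of the 12 probes divided by the background limit of the same array and dye, on a log axis, with 6 arrays for cetrotide RNA (red, left) and control RNA (grey, right). The dashed line is the limit. NR4A1, EGR1, the first IER2 probe, IER3 and BTG2 lie at least 27.4 times above it with cetrotide RNA, and NR4A3, EGR3 and the 3 CREM probes lie at the line.

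The 6 measured genes were all on average higher with cetrotide, as were 47.0% of all tested probes, and none passed the adjusted threshold. The members were chosen with earlier results of these data known, so their shared direction is no independent evidence. The mean log2 ratios were 0.99 for NR4A1, 0.96 for NR4A2, 0.80 for BTG2, 0.52 for IER3, 0.19 for EGR1 and 0.16 for the brighter IER2 probe. The order of NR4A2 and BTG2 turned with the median of the spot pixels (0.77 for NR4A2 and 1.12 for BTG2), with the deposited ratios (0.71 and 1.13) and without replicate 3 (0.42 and 0.85). The median log2 ratio of cetrotide over control was 0.66 over these 6 genes, taking the brighter IER2 probe, against -0.01 over all tested probes. It was 0.61, 0.37 and 0.73 in replicates 1, 2 and 3. With limma and Benjamini-Hochberg adjustment over all 31769 probes, 0 of the 7 member probes were called, as were 0% of all probes as higher and 0% as lower. On simulated data with the SDs of these probes and 200 of 31769 probes changed, the same fit called 1 of 100 probes changed by a log2 ratio of 1. A member that was not called can therefore not be read as unchanged. Of those 100 simulated probes, 92% had an unadjusted limma p under 0.05. The share called depends on how many probes change, so it may differ in these data. At an unadjusted p under 0.05, 2 of the 7 were higher, NR4A1 and BTG2, where 7.86% of all probes were, and 0 were lower, where 6.58% of all probes were. NR4A1, NR4A2 and BTG2 were above 0 on all 6 arrays, a pattern shown by 7.68% of all probes. In bulk RNA, fewer cells of a type and less RNA per cell cannot be told apart.

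**Figure D2:**
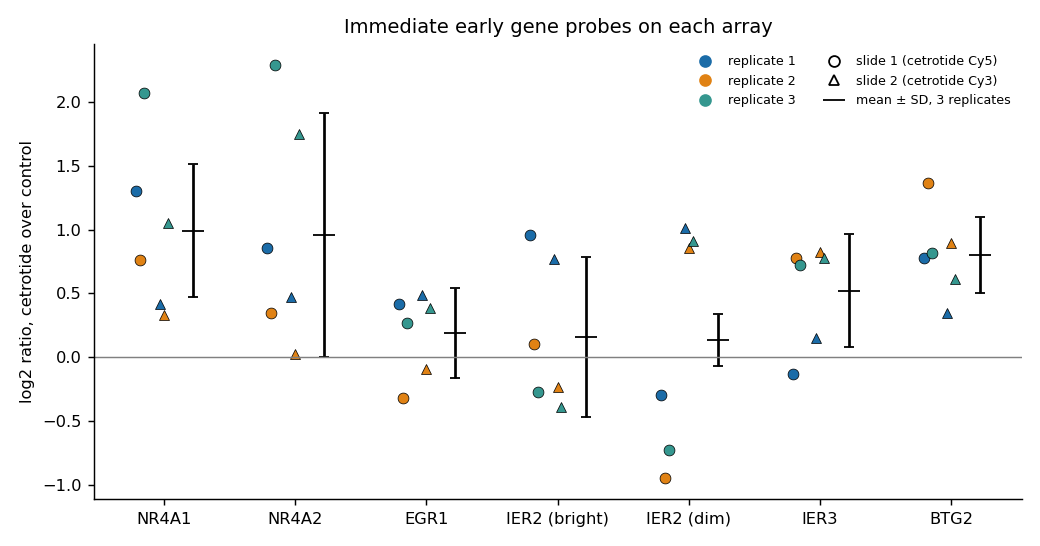
Log2 ratio of cetrotide over control of the 7 tested probes on each array, with slide 1 as circles, slide 2 as triangles, replicates by colour, and the mean ± SD of the 3 dye-swap replicates as bars. NR4A1, NR4A2 and BTG2 are above 0 on all 6 arrays, and the dim IER2 probe is below 0 on slide 1 and above 0 on slide 2.

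Among the nuclear receptors, NR4A1 (Nur77) is an orphan receptor that LH induces in ovarian cells and that activates genes of steroid synthesis. Its log2 intensity after normalization was 15.15, 15.01 and 15.44 for cetrotide RNA in replicates 1, 2 and 3, against 14.29, 14.47 and 13.88 for control RNA. All 3 cetrotide values were above all 3 control values, which held for 9.19% of all tested probes, and replicate 3 had both the highest cetrotide and the lowest control value. The log2 ratio was 0.99 ± 0.52 (SD, n = 3; 1.99-fold), with a 95% interval from 0.28 to 1.70, an unadjusted p of 0.0197 and an adjusted p of 0.260 with limma.

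NR4A1 spots of cetrotide RNA were near the top of the scale. Their mean pixel intensity was 36581, 35115 and 36530 on slide 1 and 34519, 34440 and 36287 on slide 2, for areas 1, 2 and 3. The control spots had 15711, 20917 and 10144 on slide 1 and 27393, 28628 and 21716 on slide 2. The cetrotide values thus differed little between arrays while the control values ranged widely. Cetrotide spots stood at 93.0% to 104% of the 99.9th percentile of all gene probes on the same array and dye, and control spots at 29.0% to 75.2%. With the median in place of the mean of a spot's pixels, cetrotide spots ran from 44268 to 51435 and control spots from 10276 to 33091, and the log2 ratio was 1.40 (adjusted p = 0.253 with limma). The part of the scale's upper end in the size of this ratio was not otherwise tested.

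NR4A1 also differed between the slides. Its log2 ratio was 1.38 on slide 1 and 0.60 on slide 2, and the dye term in a limma fit of the 6 single arrays (random block: area number) was 0.78 (adjusted p = 0.00547). Such a term passed for 52.6% of all tested probes. Slide and dye orientation cannot be told apart.

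NR4A2 (Nurr1), a close relative of NR4A1 that binds the same DNA sites, was far dimmer on its probe. Its log2 intensity was 8.36, 8.10 and 9.71 for cetrotide RNA and 7.70, 7.92 and 7.69 for control RNA in the 3 replicates. All 3 cetrotide values were above all 3 control values, as for 9.19% of all tested probes. However, replicate 3 stood far above the other cetrotide values. The log2 ratios were 0.66, 0.19 and 2.02, with a mean of 0.96 ± 0.95 (SD, n = 3; 95% interval -0.31 to 2.22) and an adjusted p of 0.448 with limma. Without replicate 3 the mean was 0.42. Spots ran from 1.65 to 5.14 times the background limit for cetrotide RNA and from 1.30 to 2.20 times for control RNA.

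NR4A3 (NOR1), the remaining NR4A receptor, exceeded the background limit on 1 of 6 arrays with either RNA. Its spots reached at most 1.06 times the limit with cetrotide RNA and 1.03 times with control RNA. No difference was detectable at this signal, and no fold is given.

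**Figure D3:**
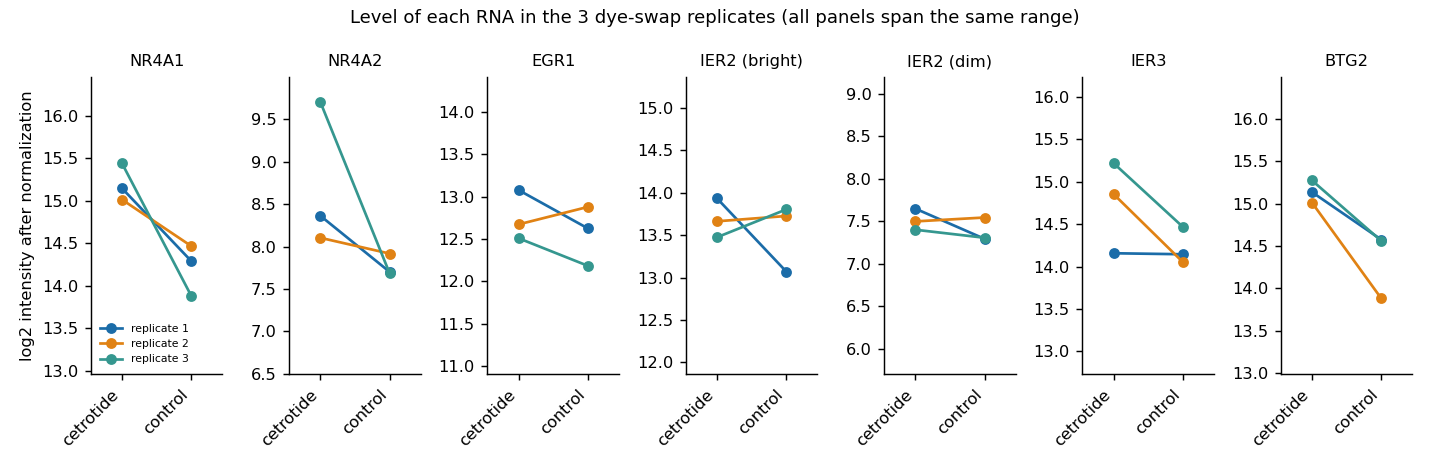
Log2 intensity of the 7 tested probes after loess and quantile normalization of the mean intensities, for cetrotide RNA (left) and control RNA (right), with a line for each dye-swap replicate. The levels of NR4A1, NR4A2 and BTG2 do not overlap between the RNAs, with all cetrotide levels the higher ones, as for 9.19% of all tested probes. IER3 separates the RNAs in replicates 2 and 3 only. Levels of different panels are not comparable.

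Of the EGR zinc finger factors, EGR1 was well measured and near equal in both RNAs. EGR1 is a rapid target of the LH-activated ERK pathway and is known to act on genes such as the prostaglandin synthase PTGES. Its log2 intensity was 13.08, 12.67 and 12.51 for cetrotide RNA, against 12.63, 12.88 and 12.18 for control RNA, so the groups overlapped. The log2 ratio was 0.45, -0.21 and 0.33 in replicates 1, 2 and 3, on average 0.19 ± 0.35 (SD, n = 3; adjusted p = 0.694 with limma). The 95% interval of -0.30 to 0.68 includes both 0 and a rise of 1.5-fold. Both slides gave a mean near that value, 0.12 on slide 1 and 0.26 on slide 2.

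EGR3 was above the background limit for cetrotide RNA on 0 arrays and for control RNA on 1 of 6, and its spots were at most 1.00 times the limit. EGR4, a relative outside the members and named here after its values were seen, had a log2 ratio of 0.08 ± 0.04 (adjusted p = 0.650 with limma).

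CREM was at the background limit on all 3 of its probes. The brightest of them was above the limit for cetrotide RNA on 3 of 6 arrays and for control RNA on 2, the next on 2 and 2, and the dimmest on 0 and 0. The highest spot was 1.30 times the limit with cetrotide RNA and 1.26 times with control RNA. Which CREM transcripts the probes match, and so whether they would report ICER, the sources used here do not give. A difference in CREM was therefore not detectable.

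IER2 and IER3 are small immediate early proteins: IER2 is a nuclear protein, and IER3 (IEX-1) modulates ERK signalling and cell survival. The 2 IER2 probes had similar means and different patterns. The bright probe had log2 intensities of 13.94, 13.66 and 13.48 for cetrotide RNA, against 13.07, 13.73 and 13.80 for control RNA. The cetrotide value was the higher one in replicate 1 and the lower one in replicates 2 and 3. The log2 ratios were 0.86, -0.06 and -0.33, with a mean of 0.16 ± 0.63 (SD, n = 3; adjusted p = 0.855 with limma), and it was -0.20 without replicate 1. Same-area arrays of slides 1 and 2 gave 0.95 and 0.77 for area 1, 0.10 and -0.23 for area 2, and -0.27 and -0.39 for area 3, so the sign differed between the slides in area 2.

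The dim IER2 probe followed the slide instead. Its log2 ratios were -0.30, -0.95 and -0.72 on slide 1 and 1.01, 0.85 and 0.91 on slide 2. Averaged over both slides they gave 0.14 ± 0.20 (SD, n = 3; adjusted p = 0.671 with limma). Its spots ran from 1.10 to 1.76 times the background limit for cetrotide RNA and from 0.982 to 1.73 times for control RNA. Slides of opposite sign on all arrays were found for 16.5% of all tested probes.

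IER3 had log2 intensities of 14.16, 14.85 and 15.22 for cetrotide RNA, against 14.14, 14.05 and 14.47 for control RNA. Replicates 2 and 3 were higher with cetrotide, replicate 1 was level, and the groups overlapped. The log2 ratios were 0.01, 0.80 and 0.75, on average 0.52 ± 0.44 (SD, n = 3; 1.44-fold; 95% interval -0.09 to 1.13; adjusted p = 0.403 with limma). The slides were close, with 0.46 on slide 1 and 0.59 on slide 2. Its cetrotide spots stood at 45.2% and 52.4% of the 99.9th percentile in area 1, at 81.4% and 95.3% in area 2 and at 84.5% and 92.8% in area 3, and its control spots at 43.9% to 63.3%. With the median of the pixels the log2 ratio of IER3 was 0.57.

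BTG2, an antiproliferative cofactor that recruits the CCR4-NOT deadenylase to messenger RNAs, had the smallest p of the members. Its log2 intensity was 15.14, 15.01 and 15.27 for cetrotide RNA, against 14.57, 13.88 and 14.56 for control RNA. All 3 cetrotide values were above all 3 control values, as for 9.19% of all tested probes. Unlike NR4A1 and NR4A2, BTG2 had its highest ratio in replicate 2. The log2 ratios were 0.56, 1.13 and 0.71, with a mean of 0.80 ± 0.29 (SD, n = 3; 1.74-fold; 95% interval 0.37 to 1.23), an unadjusted p of 0.00806 and an adjusted p of 0.216 with limma.

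BTG2 spots of cetrotide RNA were as bright as those of NR4A1, from 34163 to 36888, and control spots ran from 14064 to 29496. That was 90.9% to 102% of the 99.9th percentile for cetrotide RNA and 40.2% to 77.5% for control RNA. With the median of the pixels its log2 ratio was 1.12 (adjusted p = 0.240 with limma). BTG2 also differed between the slides, with a log2 ratio of 0.99 on slide 1 and 0.62 on slide 2. Its dye term in the limma fit of the 6 single arrays (random block: area number) was 0.37 (adjusted p = 0.0113). A dye term passed for 52.6% of all tested probes. In the blocked fit of the single arrays, BTG2 had an adjusted p of 0.0523 and NR4A1 one of 0.0989, where 1.39% of all probes were called higher. Without the block, which takes the arrays as independent, the adjusted p with limma was 0.0142 for BTG2 and 0.0331 for NR4A1. That fit called 2028 of all 31769 probes higher and 1683 lower.

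The members did not share 1 order of replicates. NR4A1 and NR4A2 were highest in replicate 3 and lowest in replicate 2, BTG2 and IER3 were highest in replicate 2, and EGR1 and the bright IER2 probe were highest in replicate 1. The named genes nearest to NR4A1 over the 6 arrays, by root mean square difference of the log2 ratios among 12383 genes, were INPP4B (0.199), BARX2 (0.207), CPNE7 (0.240), LOC100335177 (0.241) and NCKIPSD (0.258).

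Other immediate early and cAMP-responsive genes were mostly higher with cetrotide. The list was chosen with earlier results of these data known, so its counts are a description and no independent evidence. Of 42 listed genes, 38 had a tested probe, taking the brightest of each gene. Of these, 32 were above 0 and 6 below, where 48.5% of all named genes were above 0. Their median log2 ratio was 0.51, and it was 0.42, 0.25 and 0.66 in replicates 1, 2 and 3. None passed the adjusted threshold with limma. At an unadjusted p under 0.05, 11 were higher and 0 lower, where 9.46% of all named genes were higher and 8.35% lower. Without replicate 1 the count of higher genes was 8 and without replicate 3 it was 12.

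The 4 with the smallest p were FOSL1, NFIL3, JUNB and JUND, each with an adjusted p of 0.186 with limma. The AP-1 subunit FOSL1 had log2 ratios of 2.70, 3.01 and 3.37 in the 3 replicates, and the repressor of the bZIP family NFIL3 had 1.07, 1.47 and 1.29. JUNB had 1.55, 1.24 and 1.84, and JUND 1.64, 1.35 and 2.07. By contrast FOS itself, outside the naming rule, had 0.34, -0.61 and 0.37, and the ERK phosphatase DUSP1 had -0.29, -0.97 and 2.80.

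**Figure D4:**
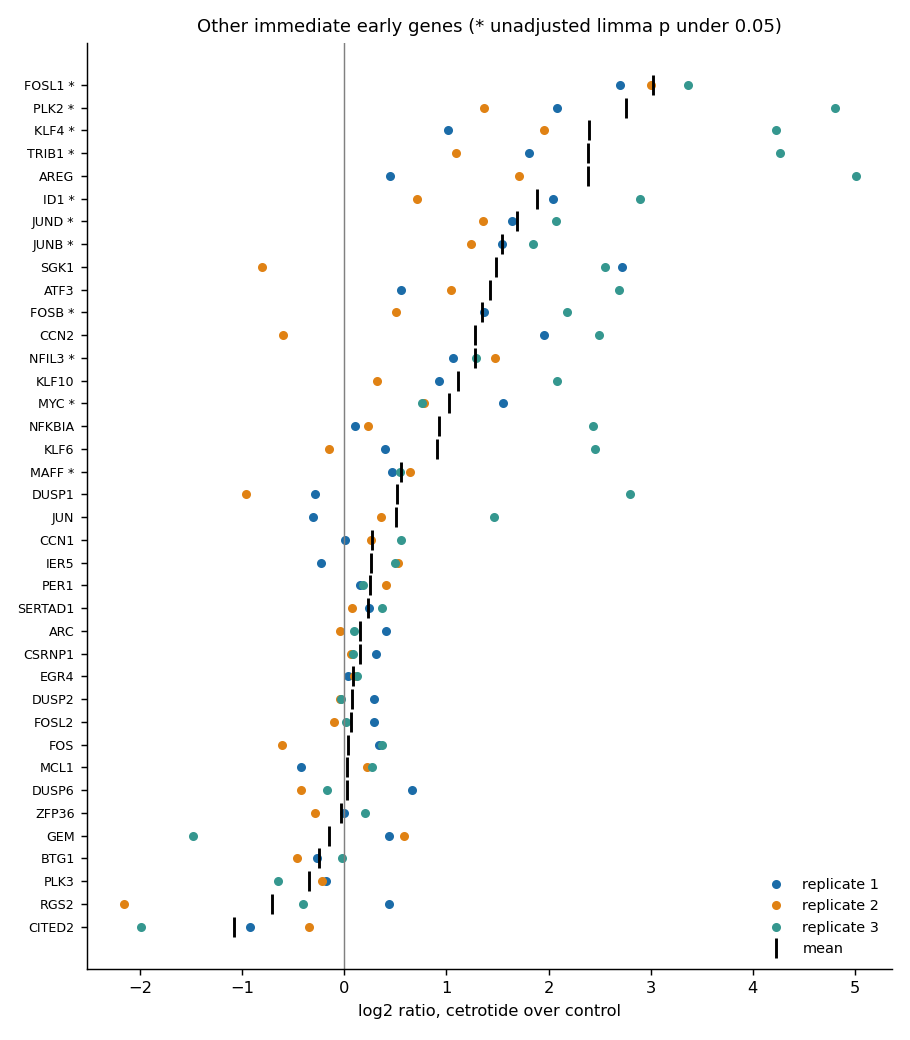
Log2 ratio of cetrotide over control of 38 other immediate early genes in the 3 dye-swap replicates (points) with their mean (bar), ordered by the mean. The asterisk marks an unadjusted limma p under 0.05, which 11 genes had, all above 0. FOS and EGR4 lie near 0, EGR4 on a dim probe.

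Upstream signalling genes and partners of the members showed no shift as a list. Of 29 listed genes 21 were tested, with a median log2 ratio of 0.06. Of these, 13 were above 0 and 8 below, where 48.5% of all named genes were above 0. At an unadjusted p under 0.05, 1 was higher and 3 were lower, where 9.46% of all named genes were higher and 8.35% lower. None passed the adjusted threshold with limma. CNOT8, a deadenylase subunit that BTG proteins bind, had -0.998 ± 0.302 (SD, n = 3; adjusted p = 0.193 with limma), and CNOT7, its paralogue, outside the naming rule, had 0.08 ± 0.08. The CREB coactivator CRTC2 had -0.40 ± 0.12 and CRTC1 0.37 ± 0.24, with CRTC1 at -0.08 on slide 1 and 0.82 on slide 2. PRKAR2B, a regulatory subunit of protein kinase A, had -0.58 ± 0.42. The EGR corepressors NAB1 and NAB2, outside the naming rule, had 0.06 ± 0.46 and -0.15 ± 0.14. The LH receptor LHCGR had no tested probe: its probes were above the background limit on 3 and 0 arrays for cetrotide RNA and on 2 and 0 for control RNA.

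Markers of other cells also differed between replicates. The median log2 ratio of the 10 tested of 13 epithelial markers was 0.06, 0.47 and 1.98 in replicates 1, 2 and 3. For comparison, NR4A1 had 0.86, 0.55 and 1.56 and NR4A2 had 0.66, 0.19 and 2.02. CDH1, CLDN3 and SPINT1 were above the background limit on too few arrays to be tested. All 10 tested epithelial markers were above 0, from 0.008 for ESRP2 to 3.65 for CLDN4, where 48.5% of all named genes were above 0. Their summed intensity was 1777 to 128369 for cetrotide RNA and 1360 to 9637 for control RNA. GRHL2, CLDN7, ELF3, ST14 and ESRP2 were dim, with mean log2 intensities of 6.83 to 7.32 and log2 ratios of 0.008 to 0.40. KRT19, CLDN4 and EPCAM were the brightest with cetrotide RNA, at 12.35, 12.21 and 11.27. The other tested probe of EPCAM had a log2 ratio of 0.04 and that of ESRP1 -0.03. The 16 tested of 17 granulosa markers had medians of -0.76, 0.21 and -1.55, with 3 above 0 and 13 below. They summed 70042 to 167944 for cetrotide RNA and 145503 to 184283 for control RNA.

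Markers of blood vessels, leukocytes and theca also varied over the replicates. The 11 tested of 15 endothelial markers had medians of 1.00, -0.05 and 0.67, with 9 above 0, and summed 1688 to 7386 for cetrotide RNA and 1712 to 1988 for control RNA. The 15 tested of 20 leukocyte markers had 0.27, -0.01 and 0.85, highest in replicate 3 and lowest in replicate 2 as for NR4A1 and NR4A2, with 14 above 0, and summed 5928 to 11053 for cetrotide RNA and 3131 to 5709 for control RNA. The 17 tested of 18 theca markers had 0.87, 0.04 and 0.02, with 13 above 0. They summed 29962 to 87816 for cetrotide RNA, highest in replicate 1, and 18856 to 25178 for control RNA. COL3A1 had log2 ratios of 8.39, 0.40 and 4.98 in replicates 1, 2 and 3, and COL1A2 had 7.25, 1.10 and 4.80. PTCH1 had -1.35, -0.50 and -1.16 on its brightest probe, and its other tested probes had means of -0.06 to 0.10. CYP17A1, GLI1 and INSL3 had mean log2 ratios of 0.03, -0.02 and 0.24. Whether the theca sum follows the number of theca cells was not tested. FLT1 of endothelium and CSF1R, NKG7 and CD79A of leukocytes were not above the background limit on any array, and the leukocyte antigen PTPRC had a log2 ratio of 0.04 ± 0.87 (SD, n = 3). The part of these cells in the ratios of the immediate early genes was not tested.

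**Figure D5:**
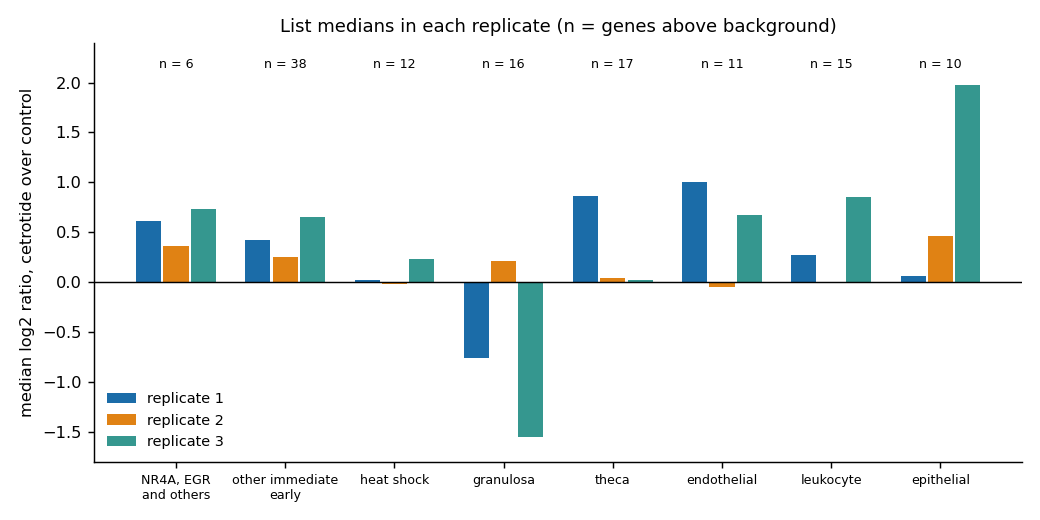
Median log2 ratio of cetrotide over control of each gene list in replicates 1, 2 and 3 (bars), with the number of tested genes. The members and the other immediate early genes are above 0 in all 3 replicates, while epithelial markers are highest in replicate 3 and granulosa markers are below 0 in replicates 1 and 3.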

How the data were processed

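Two-colour array data of 6 arrays were used. Per the labels' protocols, total RNA was isolated with the PicoPure kit, amplified over 2 rounds and labelled chemically with Cy3 or Cy5. The deposited scanner tables hold raw spot and local background intensity per the file headers, read at 532 nm for Cy3 and at 635 nm for Cy5. The authors also deposited a table of log ratios, taken as log2: its slope on log2 ratios of median pixels, turned to cetrotide over control, was 0.828 to 0.930 per array (r = 0.918 to 0.972) and its column medians ran from -0.00191 to 0.00748, with centring steps unknown.

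Mean spot intensities were corrected with normexp (offset 50) and loess-normalized within arrays, with control spots at weight 0, in limma 3.58.1 (R 4.3.3). A probe was tested if above the background limit for 1 of the RNAs on at least 4 of 6 arrays. Limma tested the 3 dye-swap averages against 0, adjusted over all tested probes (threshold 0.05). Levels are averages of both slides after further quantile normalization of mean intensities. As a check of the pairing, ratios were centred per slide, and same-area arrays then correlated at 0.897, 0.933 and 0.953 across probes, other pairs at -0.710 to -0.000393. Centring makes the 3 values of a slide sum to 0, which itself pushes other pairs below 0. Before centring, same-area arrays correlated at 0.622, 0.440 and 0.760. The platform table gave symbols for 21790 probes, of which 1524 were updated through RefSeq synonyms (ARS-UCD2.0). Named besides the members are up to 4 genes per list and direction by p, among those with an unadjusted p under 0.05, and the 5 nearest to NR4A1. Members and lists were chosen with earlier results of these data known. The fit was tested on simulated data with the SDs of the tested probes, with 200 of 31769 probes changed. It called 1 of 100 probes changed by a log2 ratio of 1 and 43 of 100 changed by 2, with 1 false call. Alternatives covered background, normalization, pixel summary, filter, deposited ratios, probe choice, dye-swap pairs, slides and replicates.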

Additional observations from a re-analysis of the deposited data

Results flagged for a closer look

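The dim IER2 probe had log2 ratios of cetrotide over control below 0 on all 3 arrays of slide 1 (mean -0.66) and above 0 on all 3 of slide 2 (mean 0.93). The difference between the slides was -1.58, with an adjusted p of 0.000121 for the dye term in the limma fit of the 6 single arrays (random block: area number). Slide and dye orientation cannot be told apart. The bright IER2 probe had 0.26 on slide 1 and 0.05 on slide 2, with a difference of 0.21 (adjusted p = 0.205).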

How the results depend on the processing

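NR4A1, NR4A2, EGR1, IER3 and BTG2 kept their direction in the 10 alternatives that can move the ratio (the other 6 leave it as it is and change only the test or the probes tested), with log2 ratios from 0.60 to 1.40, 0.42 to 1.34, 0.02 to 0.39, 0.34 to 0.78 and 0.61 to 1.13. The bright IER2 probe reversed with median centring in place of loess (-0.014) and without replicate 1 (-0.20, against 0.40 without replicate 3), and the dim probe on slide 1 alone (-0.66). The fits of 6 arrays called 2028 probes higher and 1683 lower with no replicate block, among them 2 member probes, and 441 and 299 with the area number as a random replicate block, among them 0 member probes. Slide 2 alone called 720 and 250, among them 1 member probe, the dim IER2 probe. The cause of these differences was not tested beyond the number of arrays taken as independent. At an unadjusted p under 0.05, member probes numbered 4 in both 6-array fits and on slide 2 alone, 1 with median centring, and 2 to 3 without 1 replicate. The count of all probes past this threshold also moved. It was 4586 of 31769 in the main fit, 8696 with no replicate block, 6107 with the block and 9075 on slide 2 alone. With median centring it was 4288, and without 1 replicate 2171 to 5604. The median of the member genes was 0.19 with no filter, which adds the 3 genes at background, and 0.42 to 0.85 without 1 replicate. The count of higher immediate early genes was 17 with no replicate block and 8 to 13 without 1 replicate. The count of lower ones was 3 with no replicate block, 1 with the block, 2 on either slide alone, 0 to 1 without 1 replicate, and 1 with no background correction, plain subtraction, median centring, median pixels, both RNAs above background on all 6 arrays or the deposited ratios. Of the upstream genes, 2 were higher in both 6-array fits and on slide 2 alone, 0 with no background correction, plain subtraction, median pixels, both RNAs above background, the deposited ratios or slide 1 alone, and 0 to 1 without 1 replicate. The lower ones numbered 1 to 2 without 1 replicate. The median of all probes moved by under 0.02 in every alternative. Signal over background limits NR4A3, EGR3 and CREM.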

Other observations

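Heat shock genes, which stress of cells can induce together with immediate early genes, were near 0 as a list. The 12 tested genes had a median log2 ratio of cetrotide over control of 0.04, and medians of 0.02, -0.01 and 0.23 in replicates 1, 2 and 3. Of them, 7 were above 0 and 5 below, where 48.5% of all named genes were above 0. At an unadjusted p under 0.05, 1 was higher and 1 lower, where 9.46% of all named genes were higher and 8.35% lower. None passed the adjusted threshold with limma. The co-chaperone BAG3 had 0.82 ± 0.21 (SD, n = 3; adjusted p = 0.186 with limma), and HSPA1L had -0.25 ± 0.06 (adjusted p = 0.273). The inducible chaperone HSPA1A, outside the naming rule, had -0.29, 0.60 and 0.52 in the 3 replicates.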
